A study of Mus musculus with 6 samples.

Results

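The wild-type baseline of peritoneal cell-derived mast cells (PCMC) consisted of 3 libraries of 6 in the series, chosen by their genotype label alone, and no value of the other 3 libraries (Mcemp1-/-) was used. The 3 libraries came from Mcemp1+/+ mouse peritoneal cells cultured with stem cell factor (SCF) and IL-3 until day 9. RNA was made into mRNA libraries and sequenced, and the deposited values are normalized counts for 17320 genes. They are described here as replicates 1, 2 and 3. No mouse age is given in the sources used here, no source says whether each library came from its own mouse or culture, and no selection of KIT-positive cells is described for this experiment. With a single group there is no comparison to test, so each value is given with its spread between 3 libraries, which may be partly technical.

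Mast cells are tissue-resident cells of the blood lineage that store proteases, histamine and serotonin on a serglycin and heparin scaffold in their granules. Their growth and survival depend on KIT, the receptor tyrosine kinase for SCF, and in the mouse they also respond to IL-3, whose receptor signals through a shared beta chain. Antigen bound by immunoglobulin E (IgE) triggers degranulation through FcεRI, a receptor built of alpha, beta and gamma chains. The peritoneal cavity also holds macrophages, B cells, eosinophils and the mesothelial lining, and a culture in SCF and IL-3 can carry other myeloid cells along.

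The library totals of the deposited values were 932999, 959380 and 934963 in replicates 1, 2 and 3, which is a normalized scale and not a sequencing depth. At least 1 normalized count was found in all 3 libraries for 12610 genes, of which 11269 were protein coding, and 3079 genes were under 1 in all 3. Replicate 2 stood apart in its small RNA genes, which are mostly small nucleolar RNAs (snoRNA), small RNAs that guide the modification of ribosomal RNA. These 213 genes summed to 35265 normalized counts (3.68% of the total) in replicate 2, against 29.1 in replicate 1 and 28.7 in replicate 3. *Xist*, the RNA of the inactive X chromosome, was at 0.165, 0.0537 and 1297 normalized counts in replicates 1, 2 and 3. The Y-linked *Ddx3y* was at 93.8, 85.2 and 0.0570, so replicates 1 and 2 held cells of male mice and replicate 3 cells of a female, and the group came from more than 1 mouse.

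The profile was led by mast cell granule and receptor genes, with neutrophil granule genes beside them. To compare genes, each value was divided by the kilobases of exon of its gene and scaled to the same sum (1000000) in each library, and this level per kilobase is available for 16982 genes. *Cpa3*, which encodes the granule carboxypeptidase of mast cells, was the highest gene on this scale in every library, at 31358, 31837 and 32119 per kilobase in replicates 1, 2 and 3. Its deposited values were 14213, 14253 and 14788 normalized counts, a coefficient of variation (CV, the SD as a percent of the mean) of 2.23%. The median level over all genes was 11.2 per kilobase, and 108 genes exceeded 1000.

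Among the 25 highest genes after mitochondrial, ribosomal protein, small RNA and unnamed genes are set aside, 6 encode products of mast cells or their receptors. Not all of the 6 are confined to mast cells. *Cma1*, the mast cell chymase, was at 3067, 3086 and 3327 normalized counts and took place 7 among all genes per kilobase. *Fcer1a*, the IgE-binding alpha chain of FcεRI, was at 1257, 1344 and 1381 and took place 23. *Srgn*, the serglycin core protein on which granule contents are packed, was at 1725, 1590 and 1836 and took place 31. *Csf2rb2*, the IL-3-specific beta chain of the mouse, was at 3043, 3165 and 3151 and took place 41, and its reads may be shared in part with its near-identical neighbour *Csf2rb*. *Gzmb*, a serine protease of cytotoxic and mast cell granules, was at 903, 869 and 766 and took place 50. The spread of these genes between libraries was small, with CVs from 2.14% for *Csf2rb2* to 8.42% for *Gzmb*.

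Another 6 of the 25 are granule or secreted genes of neutrophils and their precursors or of macrophages, and they varied more. *S100a9*, a calcium-binding protein of neutrophils, had 1193, 900 and 2700 normalized counts and place 6 per kilobase. *Mpo*, the myeloperoxidase of neutrophil primary granules, had 6685, 5105 and 6251 and place 17. *S100a8*, the partner of *S100a9*, had 804, 638 and 1478 and place 22. *Elane* (neutrophil elastase), *Ngp* (neutrophilic granule protein) and *Lyz2* (lysozyme of myeloid cells) took places 36, 42 and 52. In the separate libraries *Ngp* was at places 97, 99 and 24 and *Lyz2* at 99, 46 and 34. Without replicate 3 neither was among the 25, and without replicate 2 *Lyz2* was not. *S100a9*, *S100a8* and *Ngp* were highest in replicate 3, and *Mpo* was highest in replicate 1. Most of the remaining high genes are broadly used ones such as *Ftl1* (ferritin light chain), *Eef1a1* (translation elongation) and *Actb* (actin).

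**Figure D1:**
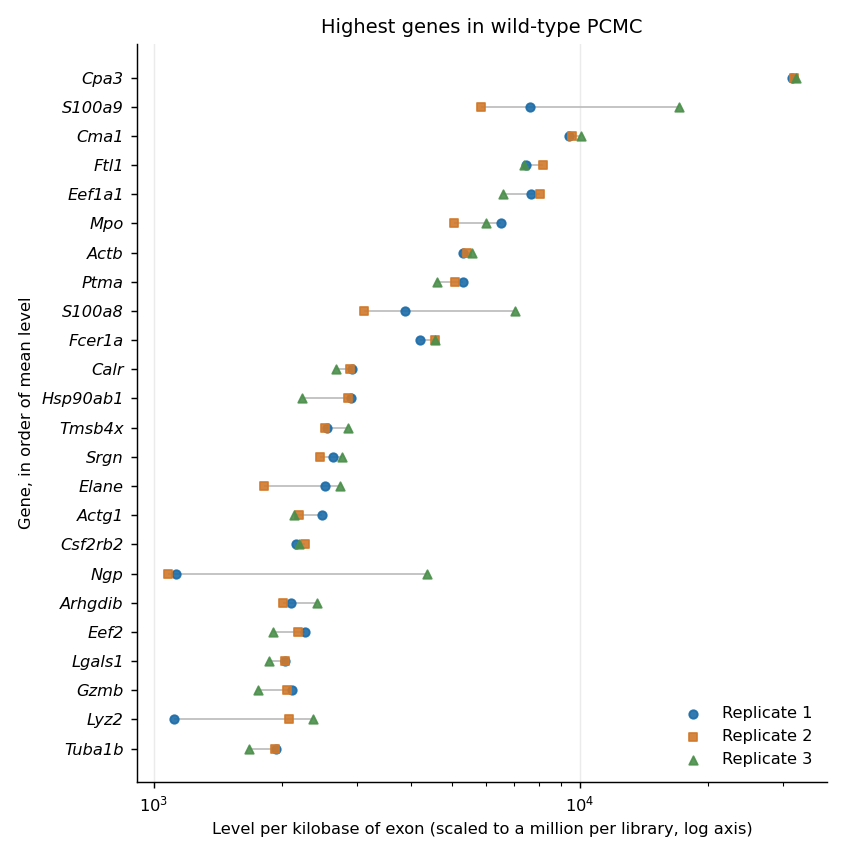
Levels per kilobase of exon (log axis, scaled to 1000000 per library) of 24 of the 25 highest genes in the 3 wild-type libraries, each point 1 library and each grey line the range. Cpa3 lies above all others at 31358 to 32119, while S100a9 and Ngp spread out because replicate 3 is far above replicates 1 and 2.

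The 10 highest genes took 6.0%, 6.25% and 6.29% of the deposited total in replicates 1, 2 and 3, and the 100 highest took 18.8%, 19.2% and 19.4%. Per kilobase the shares of the 10 highest were 12.5%, 13.2% and 14.3%. Mitochondrial genes took 2.88% to 3.22% of the total and ribosomal protein genes 2.31% to 2.52%. Some symbols of the Gm series were also among the highest genes. *Gm10925* and *Gm28437* on chromosome 1 had values nearly equal to *mt-Atp6* and *mt-Co3*, so reads of nuclear copies of mitochondrial DNA and of the mitochondrial genes themselves cannot be told apart.

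The promoters of a few mast cell and neutrophil genes are shown, picked by hand and not by level. Both lists have windows poor in CpG. Each is the RefSeq window of GRCm38.p6 from 250 bases before to 50 bases after the transcription start, printed 5′ to 3′ on the strand of the gene. Capitals mark matches on either strand to a GATA motif (AGATAA or TGATAA), a motif of the C/EBP family (TTGCNNAA) or an ETS motif (AGGAAGT), and none of these matches overlap.
Cpa3 (chr3:20242132-20242431, minus strand): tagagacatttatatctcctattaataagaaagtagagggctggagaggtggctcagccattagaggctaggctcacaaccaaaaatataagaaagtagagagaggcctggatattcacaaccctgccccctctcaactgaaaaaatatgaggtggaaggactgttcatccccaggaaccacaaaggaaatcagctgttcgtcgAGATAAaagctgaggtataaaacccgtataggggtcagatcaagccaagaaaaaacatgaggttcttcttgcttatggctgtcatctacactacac
Fcer1a (chr1:173227180-173227479, minus strand): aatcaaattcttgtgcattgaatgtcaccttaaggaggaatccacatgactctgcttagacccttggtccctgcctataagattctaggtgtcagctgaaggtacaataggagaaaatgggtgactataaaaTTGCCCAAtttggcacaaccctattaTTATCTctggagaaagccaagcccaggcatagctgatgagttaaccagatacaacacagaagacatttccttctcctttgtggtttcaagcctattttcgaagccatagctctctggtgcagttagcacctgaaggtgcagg
Ms4a2 (chr19:11623670-11623969, minus strand): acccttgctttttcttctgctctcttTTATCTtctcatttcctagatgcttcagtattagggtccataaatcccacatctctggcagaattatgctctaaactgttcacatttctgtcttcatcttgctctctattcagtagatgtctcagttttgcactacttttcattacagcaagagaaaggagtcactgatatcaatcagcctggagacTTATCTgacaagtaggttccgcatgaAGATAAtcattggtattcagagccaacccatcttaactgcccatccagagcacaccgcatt
Kit (chr5:75574737-75575036, plus strand): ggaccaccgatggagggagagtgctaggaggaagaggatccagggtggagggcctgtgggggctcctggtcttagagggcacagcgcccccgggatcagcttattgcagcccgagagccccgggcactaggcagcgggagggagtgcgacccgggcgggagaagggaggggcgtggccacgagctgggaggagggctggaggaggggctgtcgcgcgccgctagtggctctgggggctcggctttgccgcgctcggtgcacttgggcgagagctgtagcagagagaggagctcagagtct
Mpo (chr11:87793534-87793833, plus strand): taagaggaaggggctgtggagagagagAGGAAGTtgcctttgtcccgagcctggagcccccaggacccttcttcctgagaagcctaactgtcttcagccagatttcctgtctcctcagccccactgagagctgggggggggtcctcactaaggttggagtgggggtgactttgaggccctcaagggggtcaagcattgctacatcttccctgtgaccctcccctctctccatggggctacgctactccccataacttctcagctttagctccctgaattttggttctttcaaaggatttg
Ngp (chr9:110419558-110419857, plus strand): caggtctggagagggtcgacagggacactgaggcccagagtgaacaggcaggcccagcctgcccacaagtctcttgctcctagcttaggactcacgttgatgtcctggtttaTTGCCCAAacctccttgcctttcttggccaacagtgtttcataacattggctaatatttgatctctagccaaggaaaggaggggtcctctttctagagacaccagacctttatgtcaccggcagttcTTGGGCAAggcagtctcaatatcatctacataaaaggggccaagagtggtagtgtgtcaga

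The GATA match of *Cpa3* began at position -46 from the start and that of *Fcer1a* at -92, and *Ms4a2*, the beta chain of FcεRI, had matches at -224, -37 and -11. The window of *Kit* held none of the 3 motifs and 20 CpG, against 3 CpG for *Cpa3*, 1 for *Fcer1a* and 2 for *Mpo*. A window was found for 11423 of the 17320 genes, and 11.8% of these hold the GATA motif, 8.66% the C/EBP motif and 9.64% the ETS motif. Of the 18 mast cell list genes with a window, 8 (44.4%) held the GATA motif, and of the 16 neutrophil precursor genes with a window, 9 (56.3%) held the C/EBP motif and 7 (43.8%) the ETS motif. The printed windows do not stand for all high genes. *Cma1*, *Srgn* and *Tph1*, not printed, held none of the 3 motifs, and *S100a9* held a GATA as well as a C/EBP match. The median window held 3 CpG in the mast cell list and 4 in the neutrophil precursor list, against 20 over all genes with a window. Other lists had such shares too: 50% of the windows of the basophil list and of the eosinophil list held the GATA motif, 60% of those of the macrophage and monocyte list held the ETS motif, and their median CpG numbers were 2, 1.5 and 3. The dendritic cell list and the erythroid and megakaryocyte list also had 50% with the GATA motif. The median GC content was 46.8% in the mast cell list and 51% in the neutrophil precursor list, against 60% over all genes with a window. The shares were not adjusted for it. A match is a run of letters in the window, and no binding was measured.

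Of the lineage lists, the mast cell list had the highest sum, followed by the neutrophil precursor list, and the others were far lower. The lists differ in size and were chosen with earlier results of these data known, so their order does not give shares of cells. In these bulk libraries, fewer cells of a type and less RNA per cell cannot be told apart. The 22 genes of the mast cell list summed to 29719, 29982 and 30928 normalized counts (30210 ± 636, SD, n = 3), 3.21% of the total. Of the 22, 21 had at least 1 normalized count in all 3 libraries and 14 at least 100. Their median level was 422 per kilobase, against 21.8 over the genes with at least 1 normalized count in all libraries. *Cpa3* alone made up 47.7% of the list sum. *Mcpt9*, a protease described in mouse uterine mast cells, was the member under 1, at 0.284, 0.604 and 0.612.

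The neutrophil precursor list of 18 genes came next, at 12098, 9311 and 15440 normalized counts (12283 ± 3069, SD, n = 3), and 17 of its members had at least 1 in all libraries. The mast cell sum was 2.46, 3.22 and 2.0 times the neutrophil precursor sum in replicates 1, 2 and 3, and 2.05, 2.69 and 1.32 times per kilobase, where the lists were closest in replicate 3. *Mpo* made up 55.3%, 54.8% and 40.5% of the list. *Retnlg*, which marks late neutrophils in the mouse, was low at 0.877, 1.66 and 3.70, and *Ly6g*, the antigen used to stain mature mouse neutrophils, was at 9.96, 10.4 and 27.8.

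Macrophage and monocyte genes summed to 956, 1376 and 1485 normalized counts, of which *Lyz2* took 45.7%, 58.6% and 63.6%. Without *Lyz2*, which neutrophils also express, the sum was 519, 569 and 540, but its members varied more than their sum. Of the 14 list genes whose mean reached 1, 6 were over 2-fold between libraries, 12 were lowest in replicate 1 and 10 highest in replicate 3, with a median CV of 36.1%. Over all protein coding genes whose mean reached 1, 5.38% were over 2-fold. Of those 631 genes, 351 were lowest in replicate 1 and 344 highest in replicate 3, so the direction was also common outside this list. The list counts take members at any fold, so these shares are not directly comparable. *Csf1r*, the receptor for macrophage colony-stimulating factor, was at 73.2, 90.4 and 80.6, and *Cx3cr1*, a chemokine receptor of monocytes, at 140, 141 and 171. The complement genes that mark tissue macrophages were low and highest in replicate 3, with *C1qa*, *C1qb* and *C1qc* together at 1.5, 3.44 and 7.58, and *Adgre1*, which encodes F4/80, was at 10.1, 17.8 and 22.

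Eosinophil genes summed to 79.5, 116 and 208 normalized counts. *Prg2*, the major basic protein of eosinophil granules, was at 18, 33.5 and 55.9, and *Epx*, the eosinophil peroxidase, at 15.9, 32.9 and 48.5. *Cebpe*, a transcription factor of granulocyte maturation that is also in the neutrophil list, was at 26.2, 25.1 and 63.9. Of its 10 members, 9 were over 2-fold between their highest and lowest library, against 6.86% of the 13493 genes whose mean reached 1, and *Prg2* and *Epx* were lowest in replicate 1 and highest in replicate 3.

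Basophil genes summed to 543, 525 and 504 normalized counts. Most of this came from genes that mast cells also express, such as *Cd200r3* (192, 181 and 174) and *Fcgr3* (136, 146 and 156), while *Mcpt8*, the protease that defines mouse basophils, was at 29.8, 33.6 and 30.5 and *Prss34*, another basophil protease, at 1.60, 2.36 and 1.37. The stem and progenitor list summed to 839, 978 and 918, carried by *Cd34* (404, 419 and 395) and *Myb* (284, 373 and 355). *Flt3*, a receptor of multipotent progenitors, was at 1.60, 0.162 and 0.0570. The erythroid and megakaryocyte list summed to 1002, 937 and 992, of which *Tfrc*, *Itga2b* and *Gata1* took nearly all, and the globin *Hba-a1* was at 0.258, 0.0537 and 0.284.

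B cell genes summed to 66.0, 62.9 and 62.0 normalized counts, with *Ighm* at 80.3% of the list and *Pax5*, the factor of B cell identity, at 0.671, 0.859 and 0.855. T and NK cell genes summed to 24.4, 21.1 and 50.1, with *Nkg7* at 77.5% and *Cd3d* at 0.977, 0.861 and 1.43. Dendritic cell genes summed to 28.5, 35.1 and 28.0, almost all from the class II genes *Cd74* and *H2-Ab1*, and *Itgax*, which encodes CD11c, was at 0.568, 1.34 and 0.373. These defining genes of lymphoid and dendritic cells were thus at or near 1 normalized count in every library. The mesothelial and stromal list was dominated by *Pecam1*, an adhesion molecule of endothelium and blood cells, at 292, 308 and 310. Without *Pecam1* it summed to 15.1, 105 and 30.4, and *Msln*, the mesothelial marker, was at 0.831, 0.538 and 0.414.

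**Figure D2:**
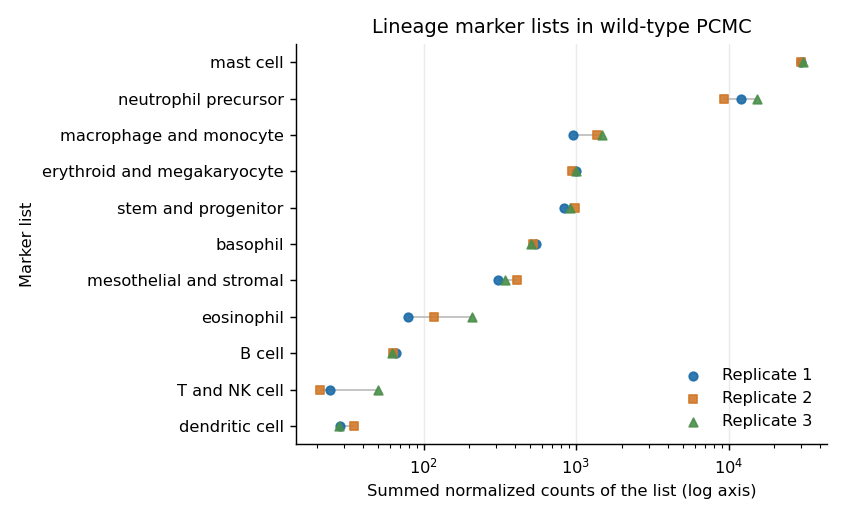
Summed normalized counts (log axis) of each lineage marker list in the 3 wild-type libraries, each point 1 library and each grey line the range. The mast cell list lies at 29719 to 30928, the neutrophil precursor list spreads between 9311 and 15440, and the T and NK cell and dendritic cell lists lie at 50.1 or below.

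Among 153 receptor and surface genes, 138 had at least 1 normalized count in all 3 libraries and 30 exceeded 100 per kilobase. *Fcer1a* was the highest, at 4216, 4563 and 4560 per kilobase in replicates 1, 2 and 3, and *Csf2rb2* was next at 2149, 2263 and 2191, and neither range overlapped its neighbours. *Il1rl1*, the receptor for IL-33, *Ms4a2* and *Csf2rb* followed at means of 1256, 1217 and 1194, and their ranges overlapped. *Fcer1g*, the signaling gamma chain of FcεRI, came sixth at 701, 722 and 759 per kilobase. The alpha chain transcript was thus the most abundant of the 3 FcεRI chains and the gamma chain the least.

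*Kit* was seventh, at 638, 648 and 666 per kilobase, a CV of 3.28% in normalized counts, and its range overlapped neither *Fcer1g* above nor *Cd53*, a tetraspanin of blood cells, below. Its place among all genes was 177. *Il3ra*, the alpha chain that gives the IL-3 receptor its specificity, was far lower than both beta chains, at 16.5, 16 and 16.4 normalized counts and place 78 among the receptors. Values of other growth factor and cytokine receptors were *Tgfbr1* (310, 332 and 318 normalized counts), *Tgfbr2* (190, 217 and 236), *Il2rg* (193, 194 and 207) and *Il4ra* (185, 149 and 152). Of the 36 genes in that list, 33 had at least 1 in all libraries.

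Of the 19 neighbouring pairs among the 20 highest receptors, 7 had ranges that did not overlap, and most of these began at *Kit* or above. Below *Kit* the order was less sharp, and only *Cd63* with *Cd9* and *Cd47* with *Itga2b* were such pairs. The tetraspanins *Cd53*, *Cd63* and *Cd9*, the low-affinity IgG receptor *Fcgr3* and the integrin chains *Itga2b* and *Itgb1* fell between 214 and 477 per kilobase. The inhibitory IgG receptor *Fcgr2b* was at 107, 101 and 119 normalized counts and the high-affinity IgG receptor *Fcgr1* at 16.3, 19.7 and 31.2. The highest G protein coupled receptors per kilobase were *Adgre5* (178, 193 and 205), *Cxcr4* (194, 153 and 180), *Ccr1* (129, 143 and 168) and *Adora3*, an adenosine receptor of mouse mast cells (133, 123 and 128). *Ccr2*, the receptor that draws monocytes and mast cell progenitors to tissue, was at 147, 136 and 61.8 normalized counts and so was lowest in replicate 3.

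*Mrgprb2*, the receptor through which connective tissue mast cells respond to basic peptides, was low at 4.23, 3.33 and 1.99 normalized counts. The immunoglobulin-like inhibitory receptors *Lilr4b* (387, 323 and 329) and *Lilrb4a* (313, 235 and 234) were high, and as near-identical neighbours they may share reads. *Cd47* (489, 457 and 522) and *Sirpa* (211, 220 and 252), a ligand and receptor pair that restrains phagocytosis, were both present. Pattern recognition receptors were modest, and none of the 19 in the table reached 100 in all libraries. *Tlr4*, the endotoxin receptor, was at 41.3, 36.7 and 45.9 and *Tlr2* at 25.5, 27.6 and 25.4. *Mcemp1* itself, the surface protein gene that the study deletes in its other libraries, was at 9.80, 7.68 and 16.9 normalized counts, place 5709 among all genes per kilobase.

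*Gata2*, a zinc finger factor that mast cells need, was the highest of 110 transcription factor genes, at 635, 669 and 626 per kilobase in replicates 1, 2 and 3, and its range overlapped no other. *Atf4* (409, 329 and 320), a factor of the stress response, and *Id2* (347, 340 and 340), an inhibitor of E proteins, came next with overlapping ranges. *Xbp1* followed at 274, 232 and 291, a factor of the secretory pathway. From the fifth place on, the order was mostly not resolved: *Ikzf1*, *Myc*, *Fli1*, *Lyl1*, *Spi1* and *Tal1*, all regulators of blood cell development or growth, had means between 156 and 199, and 4 of the 19 neighbouring pairs among the 20 highest did not overlap.

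*Mitf*, the factor that drives many mast cell granule genes, was at 84.5, 107 and 108 normalized counts, a mean of 53.9 per kilobase and place 39 of 110. *Gata1* was at 83.9, 82.2 and 77.8 normalized counts. Myeloid regulators were present beside them, with *Spi1*, which encodes PU.1, at 143, 115 and 135 and *Cebpa*, a factor of granulocyte precursors, at 115, 97.7 and 113. The STAT5 gene *Stat5b*, whose product acts downstream of the IL-3 receptor and KIT, was at 121, 132 and 134. *Irf8*, a factor of monocyte and dendritic cell development, varied widely, at 43.9, 22.9 and 7.41 normalized counts. Of the 110 genes, 100 had at least 1 normalized count in all 3 libraries.

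Mediator genes were headed by stored granule contents. *Cpa3*, *Cma1* and *Srgn* were the first 3 of 126 per kilobase, none overlapping its neighbour, and *Gzmb* and *Ctsg*, the cathepsin G that neutrophils also store, overlapped at means of 1971 and 1530. The 16 listed mast cell proteases, with *Ctsg* among them, summed to 19522, 19443 and 19820 normalized counts, and 14 of them had at least 1 in all libraries. Reads may be split among the related *Mcpt* and *Tps* genes, so the values of single members are less certain than the sum.

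In the amine group, *Tph1*, which makes serotonin's precursor from tryptophan, was at 1458, 1344 and 1378 normalized counts, and *Slc18a2*, the vesicular transporter that loads histamine and serotonin into granules, at 527, 536 and 529. *Hdc*, which makes histamine, was lower at 146, 143 and 117. *Maob*, an amine oxidase, was at 395, 375 and 421. On the per-kilobase scale *Tph1* averaged 755 and *Hdc* 71.0.

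For lipid mediators, *Alox5*, the 5-lipoxygenase that starts leukotriene synthesis, was at 1142, 1115 and 1093 normalized counts and its partner *Alox5ap* at 104, 96.7 and 113. *Lta4h*, which makes leukotriene B4, was at 432, 341 and 595, and *Ltc4s*, which makes leukotriene C4, at 6.62, 5.83 and 5.54. *Ptgs1*, the constitutive cyclooxygenase, was at 141, 134 and 164 against 0.619, 1.93 and 0.855 for the inducible *Ptgs2*. *Hpgds*, which makes prostaglandin D2 in mast cells, was at 85.2, 90.2 and 85.0. The heparin enzyme *Ndst2*, which sulfates the sugar chains of serglycin in mast cells, was at 400, 371 and 419.

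The highest cytokine genes per kilobase were *Mif* (409, 352 and 274) and *Tgfb1* (303, 290 and 260), and the next, *Osm*, averaged 62.2. In normalized counts, *Vegfa* was at 86.7, 62.9 and 79.9, *Il6* at 12.1, 12 and 13 and *Tnf* at 11.9, 10.3 and 10.7. The T helper cytokine *Il4* was at 4.39, 2.36 and 1.88. Of the chemokines, *Ccl2* (114, 107 and 113), *Ccl6* (47.9, 79.6 and 117) and *Ccl9* (84.5, 72.9 and 58.8) were the highest, and 9 of the 18 in the table had at least 1 in all libraries.

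**Figure D3:**
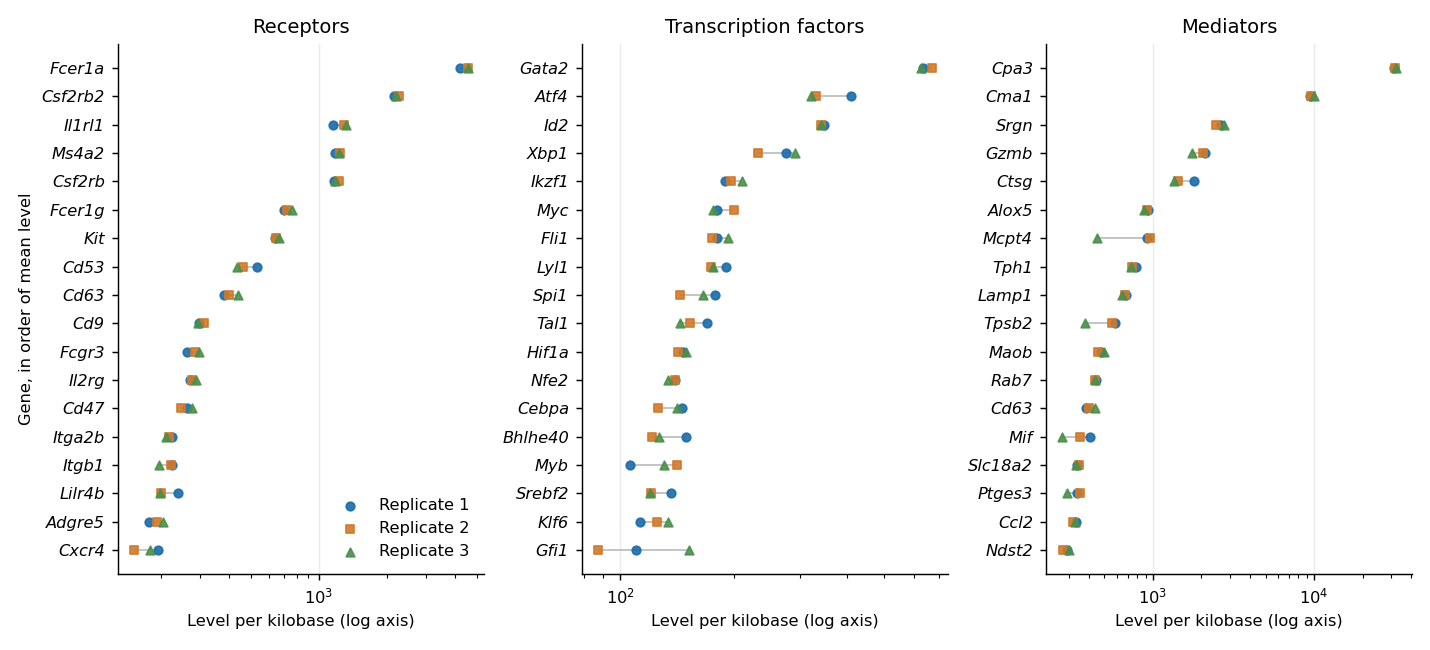
Levels per kilobase (log axes, scaled to 1000000 per library) of the 18 highest receptor, transcription factor and mediator genes in the 3 wild-type libraries, each point 1 library and each grey line the range. Fcer1a, Gata2 and Cpa3 lead their classes without overlap, Kit lies seventh among receptors at 638 to 666, and Mcpt4 and Tpsb2 spread out because replicate 3 is low.

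The cultures carried the transcripts of dividing cells, and these varied little between libraries. *Mki67*, the proliferation antigen, was at 993, 1042 and 1196 normalized counts and *Top2a*, a topoisomerase of cycling cells, at 743, 769 and 767. All 24 genes of G2 and mitosis and all 23 of DNA replication had at least 1 normalized count in every library. Their median CVs were 3.52% and 2.82%, against 8.58% over the 13493 genes whose mean reached 1. Spread depends on level, and the median CV was 5.33% over all genes at means from 100 to 1000. Of the 24 and 23 genes, 17 and 12 had at least 100 normalized counts in all libraries. The sum of the replication list was 3479, 3395 and 3330 and that of the G2 and mitosis list 4634, 4851 and 4995. *Cdk6* (414, 434 and 442) and *Ccnd2* (460, 343 and 318), a kinase and a cyclin of G1, were high, and *Ccnd1* was at 2.02, 2.60 and 1.71.

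Components of KIT and IL-3 signaling had a summed level of 6115, 6023 and 6276 normalized counts and a median CV of 5.41% over 41 genes. This is near the 5.33% over all genes at means from 100 to 1000, and 22 of the 41 had at least 100 in all libraries. None was over 2-fold between libraries, against 3.84% of all genes at means from 10 to 100 and 2.48% from 100 to 1000. For 41 genes, none is not far from these shares. *Pim1*, a kinase induced through STAT5, was at 457, 429 and 459, *Inpp5d*, the lipid phosphatase SHIP1, at 422, 452 and 469, and *Lat2*, an adaptor of FcεRI and KIT signaling, at 324, 332 and 348. Glycolysis genes were less even, with a median CV of 12.1%. *Pkm* was at 1263, 1118 and 991, *Ldha* at 835, 720 and 619 and *Pgk1* at 370, 278 and 256. The 15 glycolysis genes summed to 6919, 5982 and 5803, and none was over 2-fold.

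Over all 13493 genes whose mean reached 1 normalized count, the median SD of the log2 level, log2(normalized count + 0.5), was 0.12. The highest library exceeded the lowest by over 2-fold for 926 genes (6.86%), of which 631 were protein coding. The spread depended on level: the median CV was 18.2% at means from 1 to 10 normalized counts, 6.98% from 10 to 100, 5.33% from 100 to 1000 and 6.73% above. Across genes, which are not independent replicates, the log2 levels correlated at 0.93 between replicates 1 and 2, 0.98 between 1 and 3 and 0.92 between 2 and 3, and at 0.98 for each pair once small RNA genes were left out. All 136 snoRNA genes over 2-fold were highest in replicate 2, and 770 genes passed 2-fold once the small RNA genes were left out and the libraries rescaled to totals without them.

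**Figure D4:**
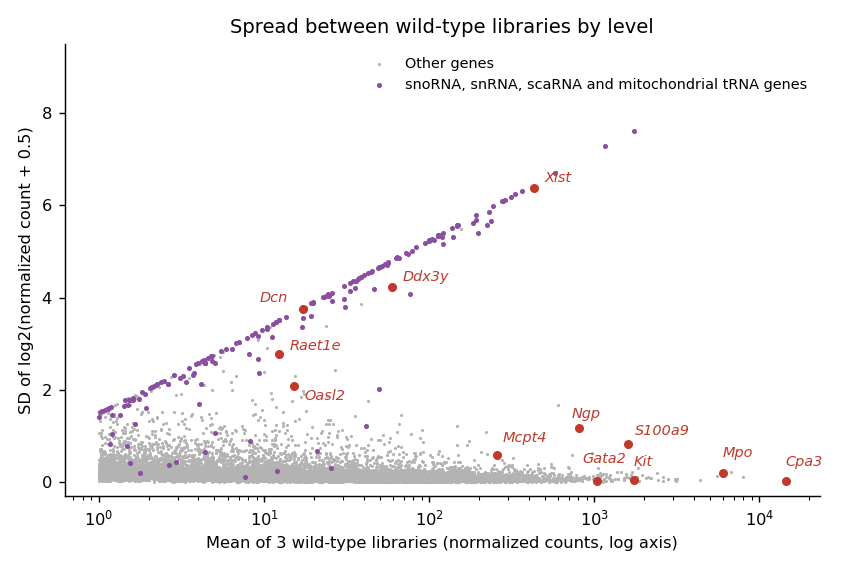
SD of log2(normalized count + 0.5) over the 3 wild-type libraries against the mean in normalized counts (log axis), each point 1 gene whose mean reached 1. Most genes lie near the median of 0.12, while small RNA genes, Xist, Ddx3y and Dcn follow the upper edge where only 1 or 2 libraries carry the transcript.

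The mast cell genes themselves divided by their spread. Of the 21 mast cell list genes whose mean reached 1, 10 had a CV under 5%, among them *Cpa3*, *Kit*, *Gata2*, *Fcer1a*, *Ms4a2* and *Cma1*. By contrast 6 had a CV over 25%, and these were protease genes and *Mrgprb* receptor genes, all lowest in replicate 3. Over all genes, the median CV was 5.33% at means from 100 to 1000 and 6.73% above, so low CVs are not particular to mast cell genes. The 90th percentile was 14.3% and 14.8% at these levels. At means from 1 to 10, where *Mrgprb1* lies, the median was 18.2% and the 90th percentile 53.3%. *Mcpt4*, a chymase, was at 306, 314 and 152 normalized counts, the tryptase gene *Tpsab1* at 81.8, 93.6 and 41.9, and the mast cell receptor gene *Mrgprb1* at 7.52, 6.53 and 1.59. *Mcpt4*, *Tpsb2*, *Tpsab1*, *Mcpt2* and *Mcpt1* summed to 708, 713 and 403, a set put together after the values were seen. Further genes of this kind, chosen likewise, are *Itga1*, a collagen-binding integrin chain, at 37.2, 35.7 and 10.4 and *Il6st*, the shared gp130 receptor chain, at 57.1, 57.5 and 18.4.

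Neutrophil precursor genes also divided, and the split below was made after the values were seen. *Mpo*, *Prtn3*, *Elane* and *Ctsg*, which encode proteins of the primary granules made early, summed to 8802, 6615 and 8238 normalized counts. *Ngp*, *Ltf*, *Lcn2*, *Camp* and *Mmp8*, which encode proteins of granules made later, summed to 610, 625 and 2134. *S100a8* and *S100a9* together were at 1997, 1538 and 4178. *Ngp* was at 411, 389 and 1625, *Camp*, the cathelicidin, at 12.7, 13.5 and 48.1, and *Ltf*, lactoferrin, at 99.3, 122 and 287. Replicate 3 was thus the highest for the later genes and for 14 of all 18 members, while for the sum of the early genes replicate 2 was the lowest. Over all protein coding genes over 2-fold, 344 of 631 were highest in replicate 3 too, while the 14 of 18 takes members at any fold. Without replicate 3 the mean sum of the neutrophil precursor list was 10705. Whether replicate 3 held more of such cells was not tested.

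With small RNA and sex-linked genes set aside, several of the largest differences between libraries were genes high in replicate 2 alone. *Dcn*, which encodes the matrix proteoglycan decorin of fibroblasts, was at 0.103, 51.6 and 0.0570 normalized counts, *Col14a1*, a fibril-associated collagen, at 0.155, 15.9 and 0.114, and *Cxcl12*, a chemokine of stromal cells, at 0.464, 18.8 and 1.14. *Steap4* (0.103, 27.0 and 0.285), *Reln* (0.0516, 21.2 and 0.114), *Colec10* (0.112, 16.8 and 0.0570) and *Rgs5*, a pericyte gene (0.258, 16 and 0.627), had the same pattern. The stromal list members *Col3a1* and *Pdgfra* were at 11.8 and 6.66 in replicate 2 and under 1 in the others. Replicate 2 was therefore the library with both the stromal and the small RNA transcripts, and without it the mean mast cell sum was 30323 and the mean stromal sum 324, or 22.7 with *Pecam1* left out as well (50.1 over all 3 libraries).

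Several genes known to be induced by interferon were lowest in replicate 1 and highest in replicate 3. *Oasl2* was at 1.34, 15.0 and 28.9 normalized counts, *Rsad2*, the antiviral protein viperin, at 1.91, 17.1 and 32.4, *Ifit3* at 1.14, 10.6 and 21.5 and *Oas3* at 3.33, 20.2 and 48.4. *Irf7*, a factor that amplifies the interferon response, was at 7.17, 37.1 and 83.1 and *Ddx58*, the RNA sensor RIG-I, at 37.8, 85.5 and 141. Replicate 2 lay between the others for each of these genes. The interferon receptor genes *Ifnar1* (49.6, 54.7 and 55.6) and *Ifngr1* (113, 100 and 132) differed far less.

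A few genes were particular to 1 library in other ways. *Raet1e* and *Raet1d*, which encode ligands of the activating receptor NKG2D and may share reads with each other, were at 35.5, 0.694 and 0.878 and at 27.6, 0.917 and 1.29 normalized counts, so high in replicate 1 alone. *Chdh*, choline dehydrogenase, was at 0.963, 20.4 and 24.9, so low in replicate 1 alone. *Lipg*, endothelial lipase, was at 89.2, 58.2 and 295, and *Mogat2*, an enzyme of triglyceride synthesis, at 5.99, 3.54 and 20.9, both highest in replicate 3. By contrast, a pair of granulocyte genes was lowest in replicate 2, *Prss57*, a neutrophil serine protease, at 51.7, 20.8 and 85.0 and *Fcnb*, a ficolin of myeloid precursors, at 47.0, 21.9 and 77.6.

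**Figure D5:**
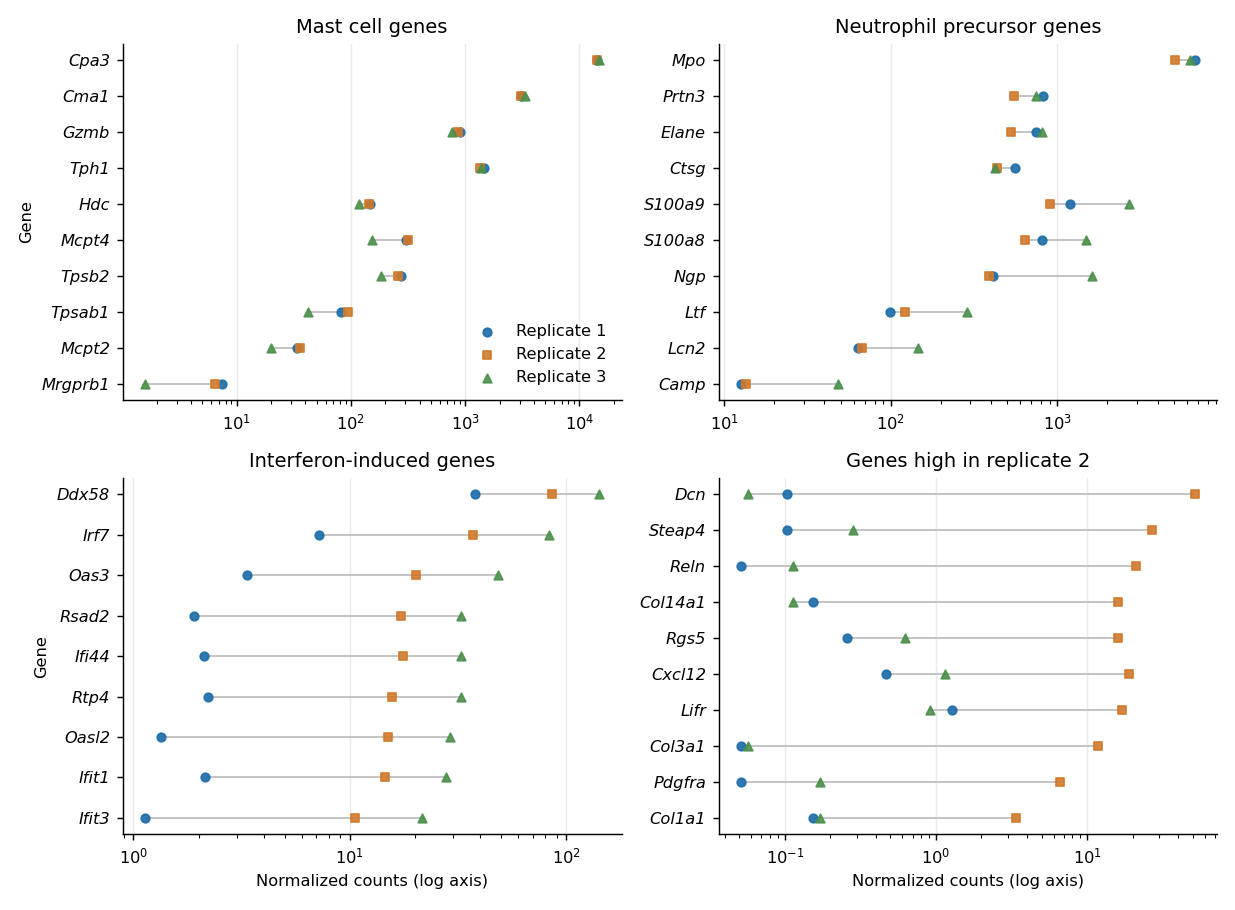
Normalized counts (log axes) in each wild-type library of mast cell granule and receptor genes, neutrophil precursor genes, interferon-induced genes and genes high in replicate 2, each point 1 library and each grey line the range. Cpa3 and Cma1 hardly move while Mcpt4 is 152 in replicate 3 against 306 and 314, Ngp is 1625 in replicate 3, Oas3 runs between 3.33 in replicate 1 and 48.4 in replicate 3, and Dcn reaches 51.6 in replicate 2 alone.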

How the data were processed

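RNA from day 9 cultures (RNeasy Micro kit) was made into libraries with the KAPA mRNA HyperPrep kit and sequenced on an Illumina NextSeq instrument. The authors processed the reads in Partek Flow, with mm10 as genome build, and deposited normalized counts per gene (a signal that sums to about the same total in each library). The sources used here name no aligner, annotation, normalization method or gene filter. Some low values are whole multiples of the lowest value of their library and others are not. Reads were not recovered, depth was not estimated and no count model was used.

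Samples were grouped by genotype label, and only the 3 wild-type columns were read. Of the gene bounds, 16790 (96.9%) equal those of GENCODE vM21, whose exon unions gave the lengths for the per-kilobase levels. Genes under 200 exon bases and small RNA genes were left off that scale, a choice made after seeing the data. Spread was computed on log2(normalized count + 0.5) for genes with a mean of at least 1. The code was checked on simulated data with the same SD at every level, no counting noise and a far smaller pseudocount. That check does not cover the settings used here. No test was run, since there is 1 group, and 3 libraries are too few for an outlier rule. Named genes were the 25 highest per kilobase, the markers, up to 6 highest of each list with defining lineage markers, the 20 largest log2 ranges at means of at least 5, and up to 5 genes led by each library. Other genes with values (further list members, genes low in 1 library, and some with large ranges) were chosen after their values were seen, as were the promoter motifs. Some genes that the rule names are not reported here and stay in every count. Members and lists were chosen with earlier results of these data known. Alternatives were other scalings (TMM), pseudocounts, filters, lengths and leaving out each library. Python 3.11.15, pandas 2.3.3, numpy 2.4.6 and matplotlib 3.10.9 were used.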

Additional observations from a re-analysis of the deposited data

How the results depend on the processing

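Of 133 values recomputed under an alternative, 113 moved by less than the spread between libraries (or, for a count of genes, stayed within 1.5 times) and 20 moved further. Leaving out 1 of 3 libraries cannot shift a mean beyond that spread. The list sums and shares recomputed in that way are thus among the 113 by construction. TMM scaling changed none of the 14 values recomputed with it, and leaving small RNA genes out of the total changed none of the 11 list sums. Per kilobase, the 10 and 100 highest genes took 13.3% and 34.7% of the total. Among receptors, *Kit* was rank 6 by longest transcript and rank 4 by normalized counts with no length, *Csf2rb* rank 3 and 2, and *Fcer1a* rank 5 by normalized counts, where *Mitf* was rank 30 among transcription factors. The count of genes over 2-fold was 455 at a mean of at least 5 and 610 with a pseudocount of 2, and 468 to 610 with each library left out. The median SD of log2 levels was 0.099 at a mean of at least 5, 0.14 with no filter and 0.11 with a pseudocount of 2, and 0.084 to 0.11 with each library left out, where 2 libraries by construction give a narrower range than 3. With small RNA genes kept on the per-kilobase scale, an alternative added after seeing the data, *Kit* was at 506 and *Cpa3* at 24658. No paired analysis was possible because there is 1 group. Depth was not estimated, so values near the floor of 0.0516 to 0.0570 normalized counts are given with no counting interval.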

Other observations

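Iron and redox genes, to which *Ftl1* belongs, had a median CV of 7.53%, against 5.33% over all genes at means from 100 to 1000. Of the 16 genes, 12 had at least 100 normalized counts in all libraries. *Fth1*, the ferritin heavy chain, was at 952, 1134 and 1181 normalized counts, *Gpx1*, a glutathione peroxidase, at 687, 629 and 656 and *Nqo1*, a quinone reductase induced by oxidative stress, at 106, 139 and 135. The 16 genes of that list summed to 6875, 7290 and 7117. None was over 2-fold between libraries, which for 16 genes is near the 2.48% of all genes at means from 100 to 1000. *Slc7a11*, the cystine transporter, was the lowest at 5.13, 6.16 and 4.78.

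Of genes that govern cell death, *Mcl1*, the survival factor that mast cells use, was at 233, 224 and 223 normalized counts and *Bcl2* at 45.6, 64.3 and 41.5. The 18 genes summed to 1332, 1308 and 1306. Of them 3 were over 2-fold between libraries, against 6.86% of all genes whose mean reached 1. These were *Bcl2a1a*, *Bcl2a1b* and *Bcl2a1d*, near-identical copies whose reads are uncertain between them.

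Of the granule trafficking genes, none of the 23 whose mean reached 1 was over 2-fold, against 6.86% of all such genes. That share was 3.84% at means from 10 to 100 and 2.48% from 100 to 1000, and none of 23 is near these. The median CV of the 23 genes was 6.61%. *Lamp1* was at 541, 526 and 521, *Rab27b*, which docks secretory granules in mast cells, at 348, 328 and 333, *Rab27a* at 132, 110 and 171, and *Vamp8*, a membrane fusion protein of degranulation, at 71.9, 81.8 and 82.5.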
